A study of Danio rerio with 6 samples.

Results

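25 genes of the Fox, Klf, Egr, Mef2, GATA, Sox and basic helix-loop-helix (bHLH) families of transcription factors were examined in zebrafish larvae that had been irradiated as embryos. They were chosen by a rule on names, set with earlier results of these data known. An array target was taken when its identifier was a RefSeq mRNA and its current zebrafish symbol began with 1 of these family names. T-box, Snail and several further bHLH names were included in the search. Of 37157 targets on the array, 3055 carried a RefSeq mRNA identifier, 2663 of these matched a current symbol, and 25 of the 2663 met the name rule. The choice therefore left out factors of the same families that the array measures under other identifiers. No T-box and no Snail target was found under the rule, and the Sox and GATA families were represented by 1 gene each (sox19b and gata3), so 13 forkhead (Fox) genes and 5 Klf genes make up most of the set. The remaining genes were egr3, mef2ca, the bHLH genes olig1 and twist2, and foxred2, which the rule takes by its first letters although its human counterpart is a flavoprotein of protein degradation in the endoplasmic reticulum and not a forkhead factor.

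Wild-type AB larvae irradiated with 5 Gy in a Co-60 irradiator at 26 h post fertilization (hpf) were compared with mock irradiated controls (0 Gy), and RNA of whole larvae was taken from both at 120 hpf. Each group consisted of 3 pools of 50 larvae, numbered 1 to 3, and each pool was measured on 1 one-color NimbleGen array. The comparison asks which genes were altered days after the highest dose at which the study saw no gross malformation. Whole larvae mix all tissues, so fewer cells of a type and less RNA per cell cannot be told apart in any value given here.

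Transcription factors of these families bind DNA through a domain that the members of a family share, and switch on or off the genes that give a cell its identity. In the embryo they act in chains: Sox factors of the B1 group hold neural progenitors in an uncommitted state, proneural and oligodendrocyte bHLH factors commit them, and GATA, Fox and Mef2 factors direct sensory organs, lens, cilia, skin ionocytes, muscle and the skeleton of the head. Klf and Egr factors are zinc finger proteins, and Egr genes are switched on within minutes of cell stimulation. Many of these genes are used most strongly before the stage studied here and continue at lower levels in restricted cells of the larva.

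The deposited values are linear intensities that the authors had quantile normalized, and median intensity lay between 355 and 357 on the 6 arrays. All values below are log2 intensities of a target, combined from its probes by median polish, and a difference of 1 on this scale is a doubling. 20 of the 25 genes had 12 probes, gata3 had 3, and the others had 9 to 11. Intensities depend on the probes as well as on RNA, so values are compared between pools of 1 gene. A percentile among all targets is given only to mark dim or bright signal and does not rank genes by RNA. Control replicate 3 resembled 5 Gy replicate 3 (r = 0.987 over all targets) more than it resembled control replicate 1 (r = 0.897) or control replicate 2 (r = 0.905). 5 Gy replicate 2 had an r of 0.893 to 0.920 with the other pools, while every other pool had 0.957 or more with its closest pool. 5 Gy replicate 1 was closest to control replicate 3 (r = 0.957). Ratios without control replicate 3 are given for genes that it moved, and ratios without other pools for some genes. The label of whole larvae was checked with marker genes of 15 tissues, of which 10 had a named target. Markers of skeletal muscle (acta1b), red blood cells (hbae3), neurons (sncb), glia (fabp7a), lens (crybb1) and pigment cells (dct) had high intensity, those of heart (myl7), leukocytes (spi1b), bone (sp7) and endothelium (kdr) lay between the 25.5th and the 34.6th percentile of all targets, the endothelial marker cdh5 and the lens marker crygm2a lay at the 51.1th and the 63.6th, and none of the 14 marker targets was called altered.

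**Figure D1:**
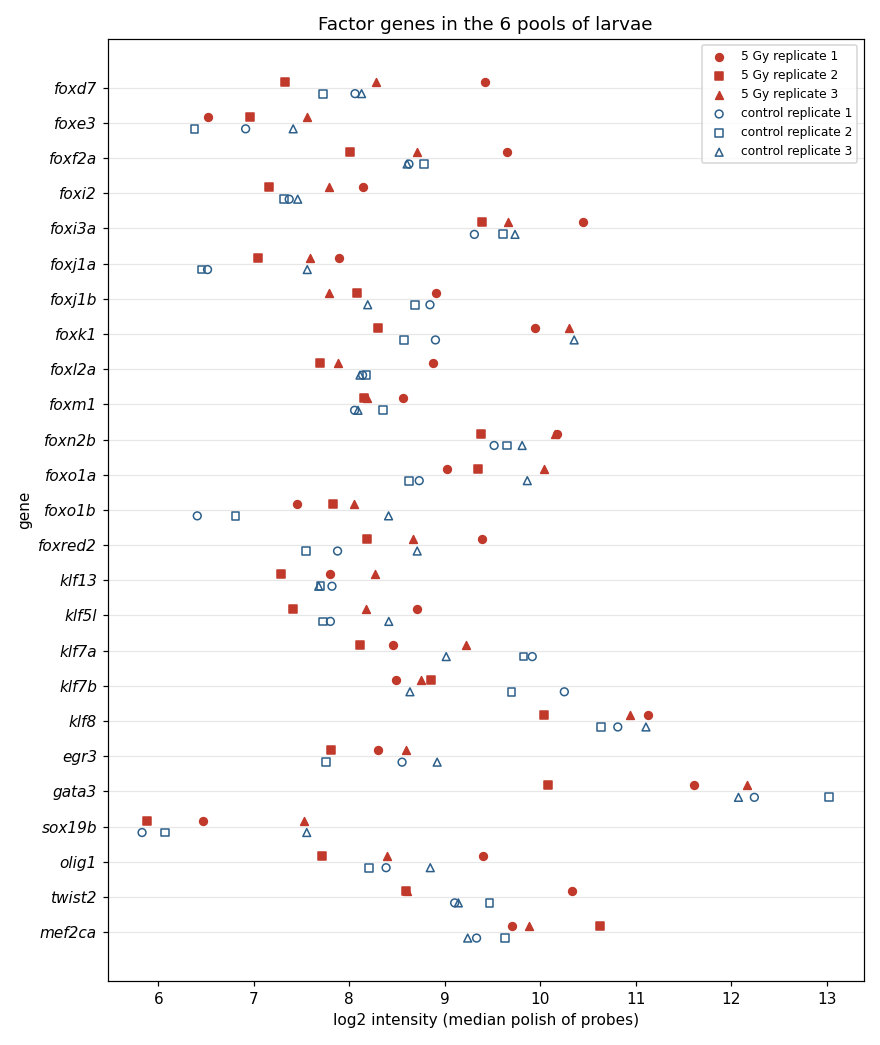
Log2 intensity of the 25 genes (rows) in each pool, with 5 Gy pools as filled symbols above control pools as open symbols; symbol shape gives the replicate number. The pools of the 2 groups overlap for every gene but mef2ca, and the circle of 5 Gy replicate 1 is the rightmost of its row for 14 of the 25 genes.

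1 of the 25 genes was called altered. Targets with an unadjusted p under 0.05 and a change of 1.5-fold or more in either direction were called. Both thresholds follow the study, but the p here came from limma and not from the methods' t-test, whose counts are given beside it. The gene was klf7a, which fell at 5 Gy, and none of the 25 rose. This is 4% of the genes, and over all targets the share called was 4.04% (2.89% lower and 1.15% higher), so these factors were called about as often as any target. With the replicate number as a block 1 of 25 was called, again klf7a, against 8.81% of all targets, and by the methods' t-test 0 of 25 were called, against 1.53% of all targets. No gene passed an adjusted p of 0.05 (smallest 0.905 from limma), nor did any target on the array by this fit. Ratios (log2, 5 Gy over control) were above 0 for 18 genes and below 0 for 7, with a median of 0.12, while the median over all targets was -0.03 and 46.6% of them lay above 0. Over the 2663 targets with a current symbol, from which the 25 were drawn, the median was 0.04 and 3.3% were called. A change of 1.5-fold or more, whatever its p, was found for 6 of the 25 genes (klf7a, klf7b, gata3, foxj1a, mef2ca and foxred2), and for 19.8% of all targets.

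The precision of 3 pools a group was limited. The 95% confidence interval of the ratio, from the fit without the replicate block, reached 0.63 to 1.44 to either side on the log2 scale (median 0.90). It lay wholly between -1 and 1 for 6 genes, and it included 1 for 14 genes and -1 for 8. For most of the genes these arrays therefore leave a doubling or a halving possible, and a gene that was not called is not shown to be unaltered.

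**Figure D2:**
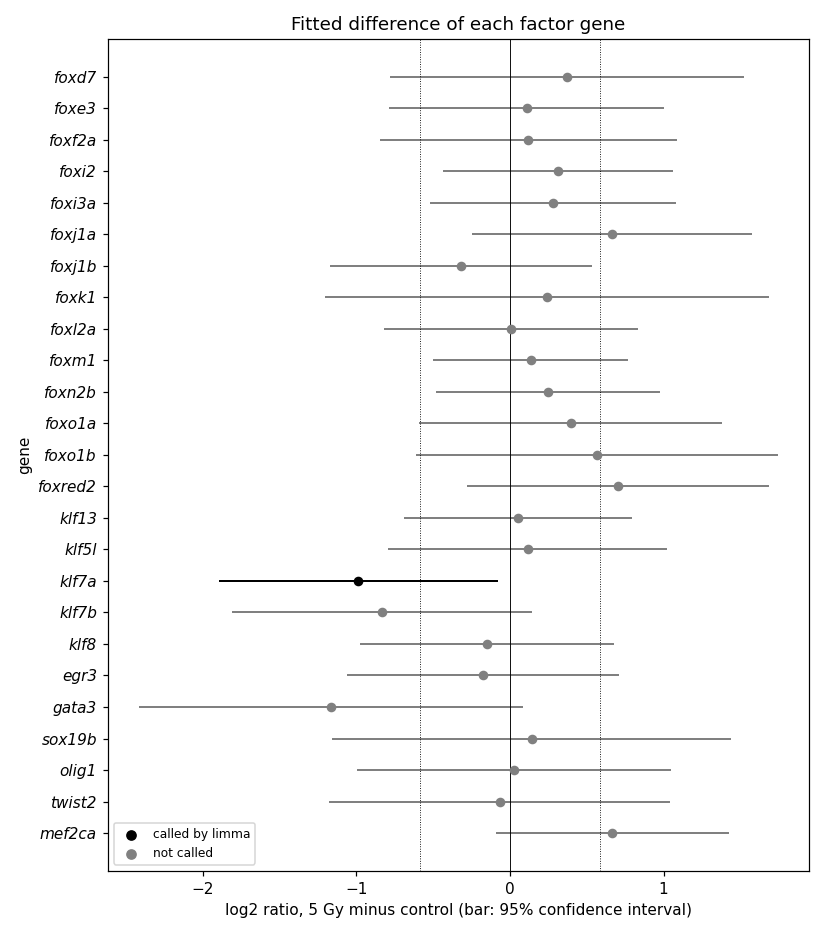
Fitted log2 ratio of 5 Gy to control for each of the 25 genes with its 95% confidence interval from limma; dotted lines mark changes of 1.5-fold in either direction. The interval of klf7a (-1.89 to -0.08) is the only one that does not cross 0, and that of gata3 is among the widest.

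klf7a and klf7b are the zebrafish copies of Klf7, a factor that neurons of the mouse need for axon growth, and both had lower means at 5 Gy. klf7a had log2 values of 8.46, 8.12 and 9.22 in 5 Gy replicates 1, 2 and 3, against 9.92, 9.82 and 9.02 in the control replicates. Irradiated pools 1 and 2 were the lowest of the 6 and control pools 1 and 2 the highest, while both pools numbered 3 lay between them and the groups overlapped there. The mean was 8.60 ± 0.566 at 5 Gy and 9.59 ± 0.496 in controls (SD, n = 3 pools each), and the log2 ratio was -0.99 (standard error 0.393, adjusted p = 0.905 from limma), about 0.505 times the control level. 11 of its 12 probes were lower at 5 Gy. The exact permutation p over the pools was 0.2 (two-sided; 0.1 is the smallest that 3 pools against 3 allow). The call was lost without 5 Gy replicate 1 (ratio -0.92), 5 Gy replicate 2 (-0.74), control replicate 1 (-0.82) or control replicate 2 (-0.87) and by the methods' t-test, and it was kept without 5 Gy replicate 3 (-1.30) or control replicate 3 (-1.27). The adjusted p of klf7a from limma was 0.567 with the replicate number as a block.

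klf7b did not pass the test, with a ratio of -0.83 (standard error 0.421, adjusted p = 0.905 from limma). Its values were 8.49, 8.86 and 8.75 in the 5 Gy pools and 10.25, 9.70 and 8.64 in the control pools. Here too control replicates 1 and 2 stood above the irradiated pools, and control replicate 3 lay among them. All 12 of its probes were lower at 5 Gy, which was so for 7.55% of the 21894 targets with 12 probes. Without control replicate 3 the ratio was -1.28 and the target passed (adjusted p = 0.089 from limma), and without control replicate 1 it was -0.47 and did not pass. The ratio of klf7a differed from that of klf7b by -0.15, with an exact permutation p of 0.7 (two-sided, n = 3 pools a group, 0.7 after adjustment over the 3 pairs of gene copies compared). Over the 6 pools the values of the copies had a Pearson r of 0.793. The sequences of the probes were not used here, so whether probes of one copy also bind RNA of the other was not tested.

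gata3, a factor of T cells, sympathetic neurons and the inner ear, had the largest ratio of the 25 genes in size, but did not pass the test. It stood at 11.61, 10.08 and 12.17 in 5 Gy replicates 1, 2 and 3 and at 12.24, 13.03 and 12.08 in the control replicates. 5 Gy replicate 2 was the lowest pool by far and control replicate 2 the highest, whereas the pools numbered 3 were level. The ratio was -1.17 (standard error 0.542, adjusted p = 0.905 from limma), with an interval from -2.41 to 0.08. Its 3 probes, few beside the 12 of most genes, gave ratios from -1.16 to -0.96. Between replicate numbers the difference ran from -2.95 (number 2) to 0.09 (number 3), with -0.63 for number 1. The target passed without 5 Gy replicate 3, at -1.61 (adjusted p = 0.978 from limma), and without 5 Gy replicate 2 the ratio was -0.56 and did not pass.

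Among the 25 genes, the values most like those of klf7a over the 6 pools were those of gata3 (Pearson r = 0.869), klf7b (0.793) and klf13 (0.45), given as a description of 6 pools that share the 2 groups. The neuronal marker sncb, which encodes a synuclein of nerve terminals, had log2 values of 13.12, 12.65 and 13.60 in the 5 Gy pools and 14.18, 13.88 and 13.57 in the controls. As for klf7a, the pools numbered 3 were level and the control pools numbered 1 and 2 stood highest. It was the only marker of 6 listed for neurons with a named target, its ratio was -0.76 and it was not called (adjusted p = 0.905 from limma). Its part in the values of klf7a, klf7b and gata3 was not tested.

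The other Klf and Egr genes showed small ratios. klf13, klf5l and klf8 had ratios of 0.05, 0.12 and -0.15, with intervals that lay between -0.97 and 1.02, and none passed. klf8 encodes a repressor in mammalian cells, and klf5l is a relative of Klf5, which drives growth of epithelia in mammals. For klf13 the irradiated pools were 7.80, 7.29 and 8.27, to either side of controls at 7.82, 7.70 and 7.68. klf5l had 8.71, 7.41 and 8.17 at 5 Gy and 7.80, 7.72 and 8.41 in controls. klf8 had 11.13, 10.04 and 10.94 at 5 Gy and 10.81, 10.64 and 11.11 in controls. In each of the 3 genes 5 Gy replicate 2 was the lowest pool. egr3, an immediate early gene that the mouse needs for muscle spindles, had 8.30, 7.81 and 8.60 at 5 Gy and 8.55, 7.76 and 8.92 in controls, so that within a number the pools differed by 0.32 or less. Its ratio was -0.17 (standard error 0.382). Single probes of these 4 genes lay on both sides of 0. Their ratios ran from -1.46 to 1.35 for egr3, -0.76 to 0.54 for klf13, -0.66 to 0.52 for klf5l and -0.69 to 0.83 for klf8.

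mef2ca was the only gene of the 25 whose pools did not overlap between groups. It encodes a factor of heart and skeletal muscle that in zebrafish also patterns the cartilages of the jaw. Its log2 values were 9.70, 10.63 and 9.88 in the 5 Gy pools, against 9.33, 9.63 and 9.24 in the control pools. The lowest irradiated pool stood just above the highest control pool, and 5 Gy replicate 2 stood well above the rest. 1 of 25 genes (4%) thus had every 5 Gy pool above every control pool, and 2.78% of all targets did. Over all targets the groups did not overlap in either direction for 7.49%, and 4.7% of all targets had every 5 Gy pool lower. The ratio was 0.67 (standard error 0.328, interval -0.09 to 1.42), about 1.59 times the control level, and did not pass the test (adjusted p = 0.905 from limma). By exact permutation of the pools p was 0.1, two-sided, which non-overlapping groups of this size always give. The difference was 0.37, 0.99 and 0.64 for numbers 1, 2 and 3, and 10 of 12 probes were higher at 5 Gy. Without 5 Gy replicate 1 it passed, at 0.85 (adjusted p = 0.776 from limma), and without 5 Gy replicate 2 the ratio was 0.39 and did not pass. The size of the ratio also depended on the summary of probes. It was 0.50 with the mean of probes, 0.35 with the median and 0.577 with an offset on intensities, each short of 1.5-fold.

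Genes of muscle differentiation, many of them driven by Mef2 with the myogenic bHLH factors, were measured by 18 targets. 2 of the 18 rose, none fell and 16 did not pass, with a median ratio of 0.10. The share called was 11.1%, against 4.04% of all targets in either direction and 1.15% higher. The list was chosen with earlier results of these data known, and the paper lists both risen genes as altered, so the share is not independent evidence. The 2 were pygma, the muscle glycogen phosphorylase, with a ratio of 0.67 (standard error 0.272), and smyd1b, a methyltransferase of the sarcomere, with 0.77 (standard error 0.319), and neither passed with the replicate number as a block or without 5 Gy replicate 1, 5 Gy replicate 2, control replicate 1 or control replicate 2. With the block srl, a calcium-binding protein of the sarcoplasmic reticulum, passed at 0.88. stac3, which couples excitation to contraction, had 11.55, 11.95 and 11.07 in the 5 Gy pools and 10.96, 10.96 and 10.79 in the controls, with no overlap but no call. Ratios in the list ran to both sides of 0, with 14 above 0 and 4 below 0. The lowest were those of the troponin genes tnni2a.1 (-0.33) and tnni1b (-0.20), of tpm1 (-0.15), a tropomyosin, and of casq1a (-0.14), a calcium store protein, while acta1b, a muscle actin, had 0.16. From the separate list of 8 muscle markers, acta1b alone had a named target. Its linear intensity was 37916 to 44264 at 5 Gy and 32038 to 41348 in controls. The part of muscle content in the mef2ca values was not tested.

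None of the 13 forkhead genes passed the test. The paper lists a FOXI1 target as higher at 5 Gy, under an identifier that the name rule did not take. Of the 13 genes, 12 had ratios above 0, with a median of 0.25. The signs differed between replicate numbers. For replicate number 1 the difference was above 0 for 12 of 13 forkhead genes (median 0.77), for number 2 for 4 of 13 (median -0.23) and for number 3 for 8 of 13 (median 0.09). Without 5 Gy replicate 1, 8 of 13 ratios were above 0. Leaving out any other single pool, it was 10 to 12 of 13.

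foxj1a and foxj1b encode the factors that switch on the genes of motile cilia. foxj1a had 7.89, 7.04 and 7.59 at 5 Gy and 6.52, 6.45 and 7.56 in controls. Control replicates 1 and 2 were the 2 lowest pools, and control replicate 3 lay level with 5 Gy replicate 3. All 12 probes were higher at 5 Gy, as in 4.18% of targets with 12 probes, and the ratio of 0.66 (standard error 0.394) did not pass the test (adjusted p = 0.905 from limma). Without control replicate 3 it was 1.02 and passed (adjusted p = 0.165 from limma). foxj1b showed the opposite sign, with 8.91, 8.08 and 7.79 at 5 Gy and 8.85, 8.69 and 8.19 in controls (ratio -0.32, standard error 0.368), and it alone of the forkhead genes had a ratio below 0. The ratios of the copies differed by 0.98, in the same direction for all 3 replicate numbers (by 0.44 to 1.32). An exact permutation test of this difference gave p = 0.3 (two-sided, n = 3 pools a group, 0.7 after adjustment over 3 pairs), in a design where 0.1 is the smallest p possible, so this test cannot settle whether the copies differ.

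foxo1a and foxo1b encode factors that insulin signaling keeps out of the nucleus. foxo1a had 9.03, 9.35 and 10.04 at 5 Gy and 8.73, 8.63 and 9.87 in controls (ratio 0.40, standard error 0.426). foxo1b had 7.45, 7.83 and 8.05 at 5 Gy and 6.41, 6.81 and 8.41 in controls (ratio 0.57, standard error 0.510). In both genes control replicates 1 and 2 were the lowest pools while control replicate 3 was among the 2 highest, and the copies had an r of 0.911 over the 6 pools. foxo1a was higher at 5 Gy in all 3 replicate numbers, by 0.29, 0.72 and 0.17, and neither gene passed the test (adjusted p = 0.907 for foxo1a and 0.905 for foxo1b from limma). Without control replicate 3 the ratio of foxo1b was 1.17 and passed (adjusted p = 0.114 from limma), while that of foxo1a was 0.79 and did not (adjusted p = 0.295 from limma). Without control replicate 1 the ratios were 0.16 for foxo1b and 0.22 for foxo1a, and neither passed. The ratios of the copies differed by -0.17 (exact permutation p = 0.7, two-sided, n = 3 pools a group).

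**Figure D3:**
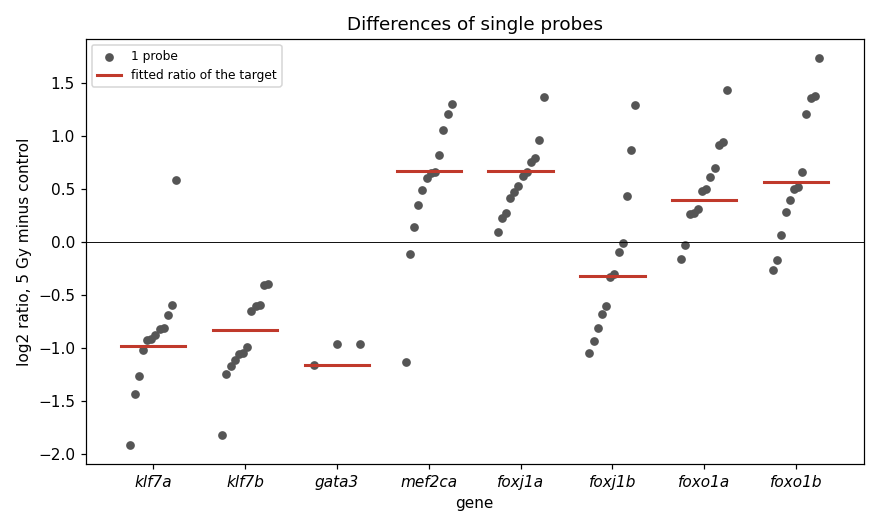
Log2 ratio of 5 Gy to control for each single probe (points, sorted within a gene) of 8 genes, with the fitted ratio of the target as a line. Probes of klf7b, gata3 and foxj1a all lie on one side of 0, while those of foxj1b run from -1.04 to 1.29.

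foxi3a, which in zebrafish skin directs cells to become ionocytes, had 10.45, 9.39 and 9.67 at 5 Gy and 9.31, 9.61 and 9.74 in controls. 5 Gy replicate 1 alone stood apart, and the ratio of 0.28 (standard error 0.345) did not pass. Its relative foxi2 had 8.15, 7.16 and 7.79 at 5 Gy against 7.37, 7.32 and 7.46 in controls, with the irradiated pools lying on both sides of 3 nearly equal controls (ratio 0.31, standard error 0.322). Of the ionocyte genes, the calcium channel trpv6, the carbonic anhydrase ca15a and the ammonium transporter rhcga had named targets, and none of the 3 passed. ca15a had 10.21, 10.17 and 9.84 at 5 Gy and 9.71, 9.80 and 9.34 in controls, every irradiated pool above every control, with a ratio of 0.45.

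The forkhead genes of lens, vessels, ovary and cell division differed less. foxe3, which keeps the lens epithelium, had a low intensity (24.9th percentile of all targets), with 6.52, 6.96 and 7.56 at 5 Gy and 6.91, 6.38 and 7.41 in controls, and its ratio of 0.11 (standard error 0.387) was within the spread of either group. foxf2a, a factor of the mural cells of brain vessels, had 9.66, 8.01 and 8.71 at 5 Gy and 8.63, 8.79 and 8.61 in controls. foxl2a, which directs ovarian cells, had 8.88, 7.70 and 7.89 at 5 Gy and 8.14, 8.18 and 8.11 in controls. For both of these genes the controls agreed closely (SD 0.099 and 0.034) and the irradiated pools did not (SD 0.826 and 0.634), with ratios of 0.12 and 0.01. foxm1, which drives the genes of mitosis, had the smallest range of the 25 genes (0.51 over the 6 pools), with 8.56, 8.16 and 8.18 at 5 Gy and 8.06, 8.35 and 8.09 in controls. Its ratio of 0.13 had the narrowest interval of the set in the fit without the replicate block, from -0.49 to 0.76. That interval leaves out a doubling and a halving.

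foxd7, foxk1 and foxn2b did not pass the test either. foxd7 had 9.42, 7.33 and 8.28 at 5 Gy and 8.06, 7.73 and 8.13 in controls, so that irradiated pools were both the highest and the lowest (ratio 0.37, standard error 0.498). foxk1, which in the mouse acts in muscle progenitors, had 9.94 and 8.30 in 5 Gy replicates 1 and 2 and 8.90 and 8.57 in the controls of these numbers. Its pools numbered 3 were the 2 highest, with control replicate 3 at 10.36 and 5 Gy replicate 3 at a difference of -0.05 from it. Its interval in the fit without the replicate block was the widest of the 25 genes, from -1.2 to 1.68 around a ratio of 0.24. With the block the standard error of foxk1 was 0.346, below that of gata3 (0.522). Without control replicate 3 the ratio of foxk1 was 0.78, which did not pass. foxn2b had 10.17, 9.38 and 10.16 at 5 Gy and 9.52, 9.65 and 9.81 in controls (ratio 0.25, standard error 0.314). foxred2, outside the family, had 9.39, 8.19 and 8.67 at 5 Gy and 7.88, 7.54 and 8.71 in controls. Its ratio was 0.70 (standard error 0.424), and without control replicate 3 it was 1.04 and passed (adjusted p = 0.218 from limma). Without 5 Gy replicate 1 it was 0.38 and without control replicate 2 it was 0.45, and it did not pass in either case.

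The neural and mesenchymal factors sox19b, olig1 and twist2 had ratios near 0, with wide intervals (-1.15 to 1.43, -0.99 to 1.04 and -1.17 to 1.04). sox19b, a Sox gene of early neural tissue, had a low intensity (19.1th percentile of all targets), with 6.47, 5.88 and 7.52 at 5 Gy and 5.83, 6.07 and 7.56 in controls. Both pools numbered 3 stood more than 1 above the others, and the ratio was 0.14 (standard error 0.563, or 0.312 with the replicate block). Without control replicate 3 it was 0.68, which did not pass. Over all the settings run, the ratio of sox19b ranged from -0.31 to 1.04. olig1, of the oligodendrocyte lineage, had 9.40, 7.72 and 8.40 at 5 Gy and 8.39, 8.21 and 8.85 in controls (ratio 0.03, standard error 0.443). twist2, of mesenchyme and dermis, had 10.33, 8.59 and 8.60 at 5 Gy and 9.10, 9.47 and 9.14 in controls (ratio -0.07, standard error 0.481). In olig1 and twist2 the control pools lay between 5 Gy replicate 1, the highest, and 5 Gy replicate 2, the lowest.

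**Figure D4:**
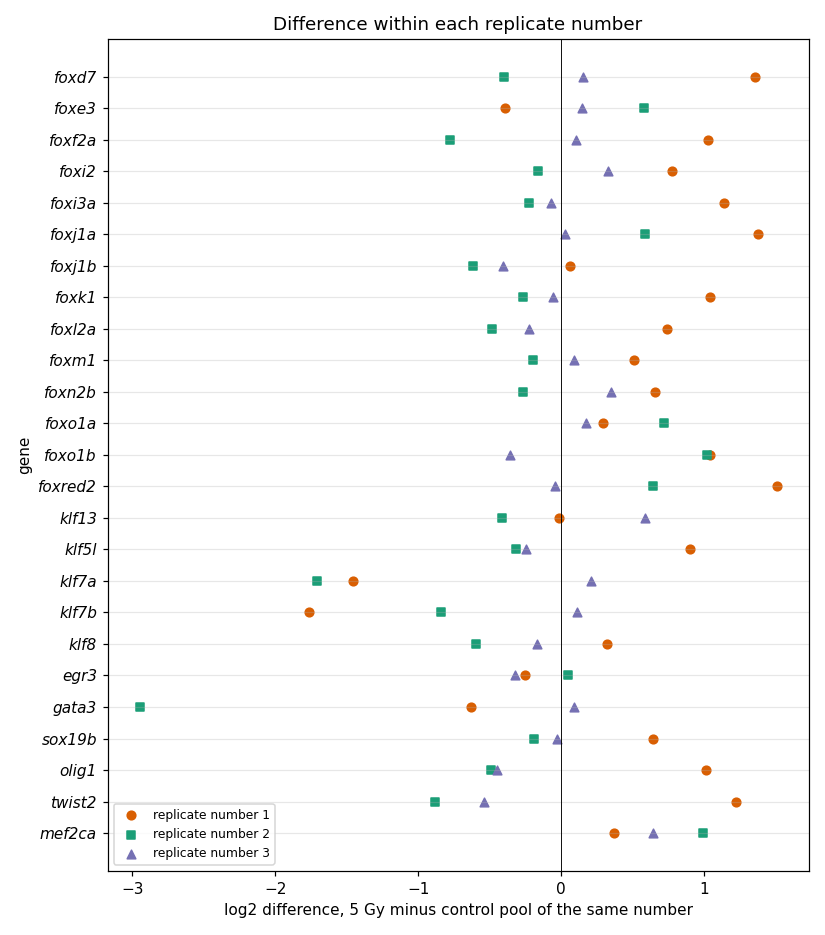
Log2 difference between the 5 Gy pool and the control pool of the same replicate number for each of the 25 genes. Circles of number 1 lie right of 0 for 19 genes, squares of number 2 for 7 and triangles of number 3 for 13, and the 3 marks share a side for foxj1a, foxo1a and mef2ca alone.

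The pools of one group differed from each other in a way that many of these genes shared. 5 Gy replicate 1 was the highest of the 6 pools for 14 of the 25 genes (56.0%), and it was the highest for 22.7% of all targets. 5 Gy replicate 2 was the lowest for 13 genes (52.0%), against 27.5% of all targets. 14 genes (56.0%) were higher at 5 Gy within number 1 and lower within number 2, as were 24.6% of all targets, and 2 genes showed the reverse. The sign was the same for all 3 numbers in 3 genes (12%), against 28.1% of all targets. The genes were not independent draws, since all 25 came from the same 6 arrays, and no test was attached to these shares. The median difference was 0.66, -0.27 and 0.03 for numbers 1, 2 and 3 over the 25 genes, and 0.03, -0.15 and 0.0019 over all targets. The median size of the difference was 0.77, 0.58 and 0.17 for numbers 1, 2 and 3 over the 25 genes, and 0.49, 0.52 and 0.19 over all targets, so number 3 differed least over all targets too.

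The number of calls moved with the pools, for these genes and for all targets. Without control replicate 3, 5 of the 25 genes passed (20.0%), with klf7a and klf7b lower and foxj1a, foxo1b and foxred2 higher at 5 Gy, and 19.2% of all targets passed. With arrays weighted by how closely they followed their group's fitted values in these same data, 9 of 25 passed, against 29.4% of all targets. Of these 9, 6 were higher and 3 lower, and none had an adjusted p under 0.05 from limma. Among the settings run, foxk1 (1.17), foxo1a (1.02) and foxj1b (-0.69) passed in this one alone. Without 5 Gy replicate 2, control replicate 1 or control replicate 2, none of the 25 passed, against 2.41%, 0.829% and 0.834% of all targets.

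Partners and targets of factors of these families were looked up in 13 lists of genes, in which 72 targets had names. 1 list, of immediate early genes beside Egr, had no named target. Many lists were drawn up around factors that are not among the genes examined here, such as Myod, Foxa and Foxd3. No list was drawn up for targets of the klf7, gata3, foxj1 or foxo1 genes, so their downstream genes were not tested as a group. 2 of the 72 rose and none fell (2.78%, against 4.04% of all targets called in either direction and 1.15% higher), namely pygma and smyd1b of the muscle list. With the replicate block 5 passed (6.94%, against 8.81% of all targets). Among partners of bHLH factors, tcf3a, an E protein, had a ratio of 0.10, and the repressor hes2.2 had 8.52, 8.59 and 7.89 at 5 Gy and 7.76, 7.67 and 7.62 in controls. The groups of hes2.2 did not overlap, and its ratio of 0.65 did not pass the test used here. The paper lists this target, under another name, as higher at 5 Gy. Of 8 genes of neuronal differentiation 0 passed, with a median of -0.46. The transcription factor ebf3a had 11.22, 10.51 and 11.92 at 5 Gy against 12.22, 11.98 and 11.96 in controls, with no overlap. It passed with the block only, at -0.83. In the same list the groups also did not overlap for syn2a, which was lower, and pou4f3, which was higher. Beside hes2.2, stac3 and ca15a, the other lists held pygma and fabp1b.1, higher, and prss59.1 of the liver list, lower, without overlap. Over all targets the groups did not overlap for 7.49%. None of 5 cardiac genes passed (median 0.27), nor did any of 9 cartilage and bone genes (median 0.33), 9 neural crest and pigment genes (median 0.02), 7 endothelial genes (median -0.16), 4 endoderm and liver genes, 4 erythroid genes or fabp7a, the 1 gene of neural stem cells. The genes with the smallest p in the cardiac, erythroid and liver lists were has2, a hyaluronan synthase (ratio 0.38, standard error 0.329), the embryonic globin hbbe3 (-0.22, standard error 0.286) and the fatty acid binding protein fabp1b.1 (0.59, standard error 0.328). With the block the purine enzyme gart (0.93), the bone factor runx2b (0.76) and the endothelial lectin clec14a (-0.80) also passed. In the pools numbered 3 each of these 3 genes differed by less than in the other 2 numbers, as klf7a did.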

How the data were processed

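RNA of 6 pools of larvae was measured on one-color NimbleGen arrays scanned on a GenePix instrument. The deposited values are linear intensities of 385000 single probes, which the authors extracted with NimbleScan and quantile normalized. RMA is named in the submitters' processing notes with no version, but the deposited rows are not combined across probes. Whether a background was subtracted is not given in the sources used here. All 6 columns were used, and the number of columns left out was 0.

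Probes that share a target were log2 transformed and summarised by median polish over the 6 arrays (10 iterations at most, tolerance 0.01), giving 37157 targets. A linear model with group as its only term was fitted to every target with limma 3.58.1 in R 4.3.3 and moderated with eBayes, and p-values were adjusted over all targets by the method of Benjamini and Hochberg. Fits with a pool left out used the same target values. Single genes and differences between gene copies were tested by exact permutation of the pools. Symbols came from RefSeq annotation of the assembly GRCz12tu, used for names only. No probe or protein sequence was used here, and slide and scan date are not given in the sources used here. The model was tested on simulated data with known changes.

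The members and lists were chosen with earlier results of these data known, and all 25 members are named. From each related list the called genes and the one with the smallest p were to be named; pygma, smyd1b, hes2.2, sncb, gart, runx2b, clec14a, tcf3a, fabp7a, ca15a, has2, hbbe3 and fabp1b.1 come from that rule, while stac3, ebf3a, srl and the other list genes were picked after their values were seen. The paper gives each replicate a separate clutch. After group means were removed, the correlation between 5 Gy and control pools of the same number was 0.150, 0.239 and 0.497. Pools of different numbers were not compared in this way. A fit with the replicate block was run beside the main fit, and its results are given where it changed a call. Standard errors, intervals and exact permutation p-values are unpaired unless the block is named.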

Additional observations from a re-analysis of the deposited data

How the results depend on the processing

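1 of the 25 factor genes was called by limma, and the same count was found with the replicate block, a further round of quantile normalization, arrays centred on their medians, probes summarised by mean or median, an offset of 50 on intensities and the dimmest 25% of targets left out. The count was 2 with an intensity trend in eBayes (gata3 added), 9 with array weights, 0 by the methods' t-test and 0 in its paired form, and 0 to 5 with single pools left out. Over all targets it was 1500, with 3272 under the block, 10913 with array weights, 569 by the t-test, 341 in its paired form and 308 to 7126 with single pools left out. For the related lists it was 2, with 5 under the block, 4 with median centring, 0 with the median of probes, 6 with a trend, 13 with array weights, 0 in the paired t-test and 0 to 10 with single pools left out. The median ratio of the 25 genes ran from -0.027 to 0.42 with single pools left out, and it was below 0 only without 5 Gy replicate 1. With the replicate block klf7a kept its call and no other call among the 25 changed. Signs turned with array weights for egr3 (0.33), foxl2a (-0.13) and klf8 (0.12), with the offset for foxl2a (-0.0058) and klf13 (-0.00029), with the mean of probes for klf5l (-0.0025) and twist2 (0.037), with the median of probes for klf5l (-0.30), olig1 (-0.12), sox19b (-0.20) and tcf3a (-0.057). With single pools left out they turned for egr3 -0.50 to 0.081, foxd7 -0.17 to 0.88, foxe3 -0.16 to 0.37, foxf2a -0.31 to 0.51, foxi3a -0.027 to 0.50, foxk1 -0.15 to 0.85, foxl2a -0.35 to 0.24, klf13 -0.19 to 0.30, klf5l -0.19 to 0.46, klf8 -0.36 to 0.18, olig1 -0.42 to 0.42, sox19b -0.31 to 0.68, twist2 -0.64 to 0.23, tcf3a -0.10 to 0.41 and fabp7a -0.21 to 0.46. The causes were not tested. The mean intensity of foxe3 and sox19b lay in the dimmest 25% of targets.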
